A study of Mus musculus with 8 samples.

Results

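The genes followed here carry the output of the circadian clock, or stabilise it, and were measured in mouse cerebellum in which astrocytes were made to export calcium. They are the PAR bZIP genes Dbp, Tef and Hlf, their antagonist Nfil3, the Rev-erb genes Nr1d1 and Nr1d2, the ROR genes Rora and Rorb, and the repressor gene Ciart. They were chosen by name, with earlier results of these data known, and all 9 were found among the 24060 rows of the count table. RNA of whole cerebellum was sequenced from 4 bigenic and 4 control mice. The bigenic mice had 2 transgenes. CalExflox yields a calcium pump of the plasma membrane once it has been recombined, and Aldh1l1-Cre/ERT2 supplies Cre in astrocytes when tamoxifen is given. The control mice had CalExflox alone, so that the pump and Cre itself cannot be told apart. Mice of both groups received 1 dose of tamoxifen at 75 mg/kg and were dissected 5 days afterwards. By the labels each library has a mouse of its own, and sex, age and the hour of collection are not given.

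In the mammalian clock the activators CLOCK and BMAL1, the product of Arntl, bind E-box sites and switch on the Per and Cry genes, the Rev-erb genes, Ciart and the PAR bZIP genes. Rev-erb proteins repress, and ROR proteins activate, genes with ROR elements, Arntl among them. DBP, TEF and HLF activate genes through D-box sites, which NFIL3 occupies as a repressor. In the cerebellum RORA is also known apart from the clock, since Purkinje cells need it to mature and mice that lack it are ataxic.

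The 3 members with the largest differences between the groups were Ciart, Nr1d1 and Tef. Their upstream sequences are shown here together with that of Nr1d2, the paralog of Nr1d1, because they bear on which clock elements lie at these genes. Each is the 250 bases before a transcript start, read 5′ to 3′ on the strand of the gene, from RefSeq on build GRCm38.p6. Capitals mark a match to a motif named below. The Ciart window is chr3:95882229-95882478 on the minus strand, and the Tef windows, at 2 alternative starts, are chr15:81802423-81802672 and chr15:81811164-81811413 on the plus strand. The Nr1d1 window is chr11:98775378-98775627 and the Nr1d2 window chr14:18239107-18239356, both on the minus strand.
Ciart: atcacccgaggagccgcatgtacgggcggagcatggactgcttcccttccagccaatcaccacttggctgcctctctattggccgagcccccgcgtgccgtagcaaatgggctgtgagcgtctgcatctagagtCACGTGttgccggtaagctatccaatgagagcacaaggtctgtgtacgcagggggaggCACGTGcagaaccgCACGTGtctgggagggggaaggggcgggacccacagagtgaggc
Tef, first start: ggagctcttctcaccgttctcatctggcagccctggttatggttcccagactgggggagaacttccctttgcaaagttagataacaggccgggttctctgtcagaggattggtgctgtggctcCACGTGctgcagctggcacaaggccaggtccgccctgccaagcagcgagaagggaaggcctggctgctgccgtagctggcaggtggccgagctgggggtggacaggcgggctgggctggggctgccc
Tef, second start: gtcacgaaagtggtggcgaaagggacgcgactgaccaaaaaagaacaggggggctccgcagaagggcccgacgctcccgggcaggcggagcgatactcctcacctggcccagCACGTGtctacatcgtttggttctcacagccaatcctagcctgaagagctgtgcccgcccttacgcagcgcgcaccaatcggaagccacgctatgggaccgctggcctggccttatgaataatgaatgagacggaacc
Nr1d1: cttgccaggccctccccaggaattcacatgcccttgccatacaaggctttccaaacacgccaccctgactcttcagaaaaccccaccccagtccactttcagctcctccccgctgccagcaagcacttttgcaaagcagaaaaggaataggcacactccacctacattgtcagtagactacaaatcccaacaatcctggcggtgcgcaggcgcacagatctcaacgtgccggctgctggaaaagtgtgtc
Nr1d2: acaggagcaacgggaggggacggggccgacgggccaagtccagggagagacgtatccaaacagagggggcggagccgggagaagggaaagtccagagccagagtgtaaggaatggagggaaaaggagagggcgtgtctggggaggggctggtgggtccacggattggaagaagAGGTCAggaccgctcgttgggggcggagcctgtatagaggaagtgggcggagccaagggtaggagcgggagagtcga

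The Ciart window held 3 copies of the E-box CACGTG, which begin 116, 58 and 44 bases before the start. Each Tef window held 1 copy, 127 bases before the first start and 138 bases before the second. The other 7 members held no CACGTG in their windows. Of all 32851 windows of this length in the RefSeq table, 6.02% held CACGTG and 20, or 0.0609%, held it 3 or more times. The nuclear receptor half-site AGGTCA, searched on both strands, was found 77 bases before the Nr1d2 start and 12 bases before the Nfil3 start, and 14.02% of all windows held it. The Nfil3 match was also the longer form TAGGTCA, which contains AGGTCA and was in 2.23% of windows. The cAMP response element TGACGTCA lay 9 bases before the Hlf start and was in 1.55% of windows. The D-box forms TTACATAA, TTACGTAA, TTATATAA and TTATGTAA, held by 1.43% of windows, and the palindromic glucocorticoid response element, held by 0.387%, were in no window of a member. A match describes the letters alone. Other forms of these motifs, those of the E-box among them, and sites outside these 250 bases were not searched.

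Counted reads per library ranged from 35208460 to 38293012, and the members were counted at between 313 and 32695 reads in each library. All 9 members passed the filter on low counts. Of the 15186 genes tested, 44.3% passed an adjusted p of 0.05 by edgeR's quasi-likelihood test, 3249 higher and 3485 lower in bigenic tissue, and with library size as the only scaling 44.8% passed, 2423 higher and 4373 lower. With the replicate number as a block 49% passed, and the same 7 members were called. Control libraries 1, 2 and 3 held choroid plexus transcripts. Levels are given as CPM, which are counts scaled to library size adjusted by TMM factors. The summed level of 10 choroid plexus markers was 45.0 to 52.5 CPM in bigenic libraries, against 357, 2537, 3175 and 44.5 CPM in control libraries 1 to 4. Of these markers 8 of the 9 tested were lower in bigenic tissue, and 0 of the 10 were at 0 in all libraries. Control library 4, whose choroid plexus level was near that of the bigenic libraries, held more of the markers of brainstem and midbrain, at 149 CPM, against 61.7 to 75.6 CPM in bigenic and 55.2 to 65.9 CPM in the other control libraries. The markers of astrocytes and Bergmann glia, the cells in which Cre is expressed, summed to 6113 to 6983 CPM in bigenic and 5677 to 6197 CPM in control libraries, with 4 of 10 higher and 2 lower. Those of microglia summed to 143 to 172 CPM in bigenic and 187 to 221 CPM in control libraries, with 4 of 9 lower. Those of endothelial and mural cells summed to 197 to 210 CPM in bigenic and 224 to 252 CPM in control libraries, with 1 of 9 higher and 2 lower. Markers of Purkinje and granule cells, which define the cerebellum, were present in all libraries. The part of any of these cell types in the results below was not tested. In bulk tissue fewer cells of a type and less RNA per cell cannot be told apart.

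Most of these clock output genes were higher in bigenic cerebellum, with differences that fell into a large and a small class. As the hour of collection is not given, a difference of hour between the groups cannot be told apart from one of genotype. Of the 9 members, 7 rose and 0 fell, where 21.4% of all genes tested were called higher and 22.9% lower. As the members were chosen with earlier results of these data known, this count describes them and does not test them against all genes. The median log2 fold change of the members was 0.36, against -0.0041 over all genes tested. Ciart, Nr1d1 and Tef rose by more than 1.5-fold, as did 8.22% of all genes tested. Dbp, Hlf, Nr1d2 and Rora rose by between 1.18-fold and 1.32-fold, and Nfil3 and Rorb did not pass the test. The CPM ranges of the groups did not overlap for 6 members, all 6 higher in bigenic tissue, where 40.7% of all genes did not overlap and 19.4% did not overlap and were higher. Without control libraries 2 and 3 the 4 members Ciart, Nr1d1, Tef and Rora passed the test, and 21.9% of all genes did. When the amount of Ttr, a choroid plexus transcript, entered the fit as a covariate, 4 members also passed, against 19.3% of all genes.

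**Figure D1:**
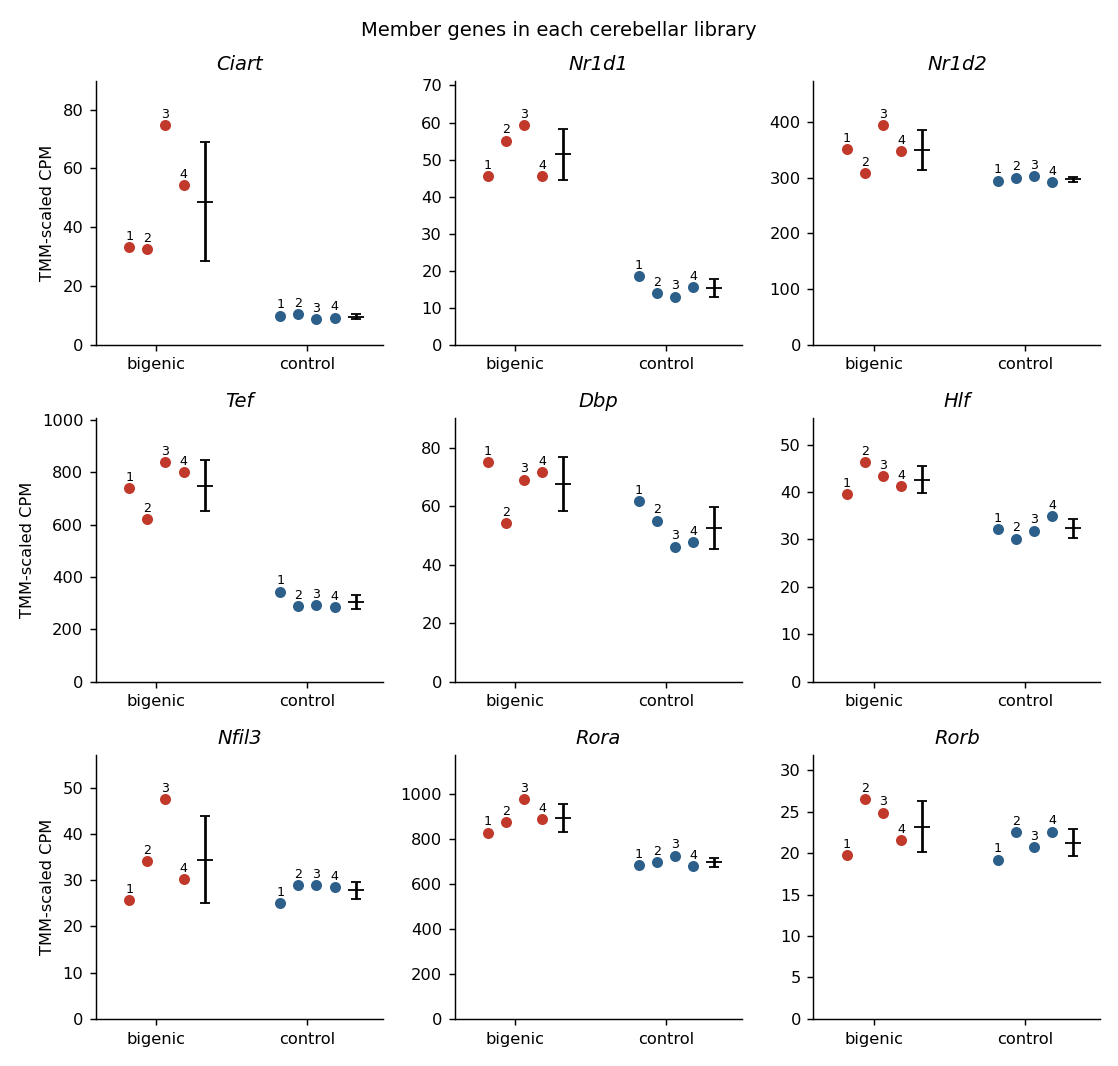
TMM-scaled CPM of each of the 9 genes in the 4 bigenic and the 4 control libraries. Points are libraries numbered 1 to 4, and the black bar beside each group is its mean ± SD (n = 4). Ciart, Nr1d1 and Tef stand well apart between the groups, whereas the ranges of Dbp, Nfil3 and Rorb overlap.

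Ciart encodes a repressor of CLOCK and BMAL1, also called CHRONO (chromosome 3, 95878503 to 95882251, minus strand, GRCm38). It measured 33.1, 32.5, 74.8 and 54.3 CPM in bigenic libraries 1 to 4, against 9.88, 10.5, 8.68 and 9.19 CPM in control libraries 1 to 4. Every bigenic library was above every control, with libraries 3 and 4 above libraries 1 and 2. The rise was 5.08-fold, or 2.35 ± 0.25 on the log2 scale (SE; adjusted p = 7.4e-05). Control library 4, with little choroid plexus RNA but more brainstem markers, had a Ciart level within the range of the other controls. Without control libraries 2 and 3 the log2 fold change was also 2.35 (adjusted p = 0.0028). The part of choroid plexus or brainstem RNA in the Ciart level was not tested. The bigenic values spread more widely than the controls, at 48.7 ± 20.2 CPM in bigenic libraries against 9.57 ± 0.802 CPM in controls (SD, n = 4). Leaving out bigenic library 3, the highest, gave 2.05 (adjusted p = 4.9e-05).

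Nr1d1 encodes REV-ERBα, a haem-binding repressor (chromosome 11, 98767932 to 98775333, minus strand). It measured 45.5, 55.1, 59.3 and 45.6 CPM in bigenic libraries 1 to 4, against 18.6, 13.999, 13.0 and 15.5 CPM in control libraries 1 to 4. The lowest bigenic value was far above the highest control value. The rise was 3.36-fold, or 1.75 ± 0.13 on the log2 scale (SE; adjusted p = 5.2e-06), and it was 1.59 without control libraries 2 and 3. Exons of Nr1d1 share 263 bases with Thra, the thyroid hormone receptor α gene, on the opposite strand, and the counting is not stated to use strand. Thra itself averaged 358 ± 38.3 CPM over the bigenic libraries and 238 ± 2.40 CPM over the controls (SD, n = 4), or 0.58 ± 0.08 on the log2 scale (SE; adjusted p = 0.00025). How reads in the shared bases were counted is not stated, so they could add to the Nr1d1 count or be missing from it. The part of Thra in the Nr1d1 count was not tested.

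Nr1d2 encodes REV-ERBβ, the second Rev-erb repressor (chromosome 14, 18204054 to 18239127, minus strand). It measured 351, 308, 395 and 348 CPM in bigenic libraries 1 to 4, against 295, 301, 303 and 293 CPM in control libraries 1 to 4. The bigenic libraries were all above the controls on this scale, but bigenic library 2 by little, and on the deposited FPKM (counts scaled to gene length and column total) it lay below all controls, at 64.3 FPKM in that library against 65.5 to 66.5 FPKM in controls. The log2 fold change was 0.24 ± 0.08 (SE; adjusted p = 0.030). This call was lost with library size alone (0.15, adjusted p = 0.12), with upper-quartile factors (0.18, adjusted p = 0.076) and without control libraries 2 and 3 (0.25, adjusted p = 0.14), and it held in 1 of the 8 fits that each left out a library.

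The Rev-erb paralogs were set against each other as a ratio. The log2 ratio of Nr1d1 to Nr1d2 CPM was -2.95, -2.48, -2.73 and -2.93 in bigenic libraries 1 to 4, against -3.99, -4.42, -4.54 and -4.23 in control libraries 1 to 4. The ranges did not overlap, and the ratio was higher by 1.52 in bigenic tissue. An exact two-sided permutation test over the libraries gave p = 0.0286, the smallest that 4 against 4 allows, and 0.057 when adjusted over the 8 ratios compared, which does not pass 0.05. On the FPKM scale, which allows levels to be set side by side, Nr1d1 made up 19.8 ± 2.45% of the summed Rev-erb level in bigenic libraries and 7.92 ± 1.24% in controls (SD, n = 4). Nr1d2 remained the more abundant paralog in all 8 libraries.

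**Figure D2:**
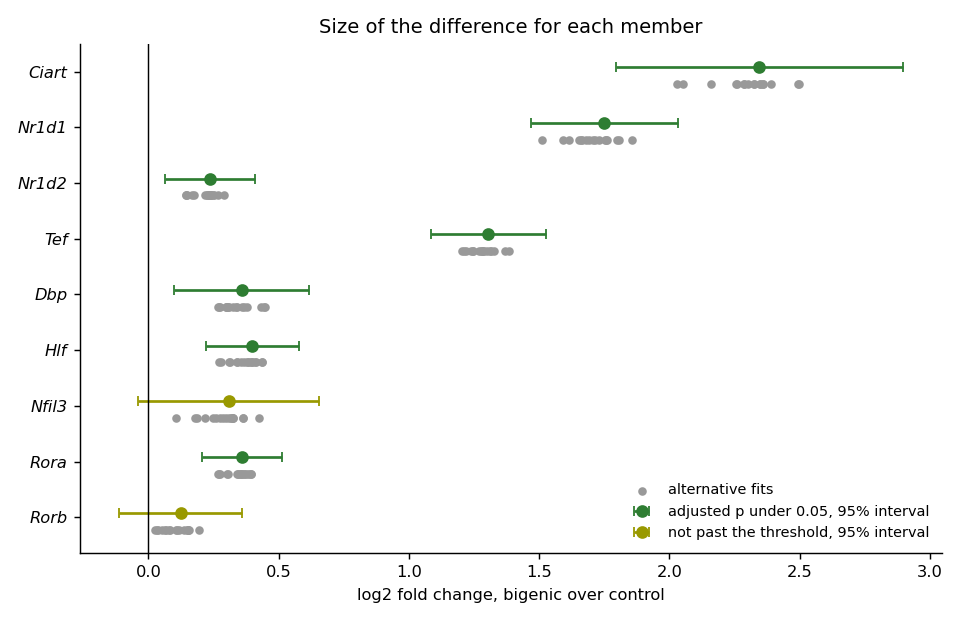
Log2 fold change of each gene, bigenic over control, with its 95% interval from the edgeR fit, and below it in grey the value in each of 17 alternative fits. Ciart, Nr1d1 and Tef lie above 1 in all of them, and the interval of Nfil3 and of Rorb includes 0.

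Tef, which encodes thyrotroph embryonic factor, rose most among the PAR bZIP genes (chromosome 15, 81802421 to 81826863, plus strand). It measured 738, 619, 838 and 800 CPM in bigenic libraries 1 to 4, against 344, 290, 293 and 286 CPM in control libraries 1 to 4. The groups lay far apart, with control library 1 the highest of the controls. The rise was 2.47-fold, or 1.30 ± 0.10 on the log2 scale (SE; adjusted p = 7.4e-06), and it was 1.25 without control libraries 2 and 3. Tef shares 193 exonic bases with the antisense transcript Gm17597, which was too low to be tested.

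Dbp, which encodes the D-box binding protein and is among the most strongly rhythmic clock outputs of mouse tissues, rose by less (chromosome 7, 45705088 to 45710203, plus strand). It measured 75.2, 54.3, 69.2 and 71.7 CPM in bigenic libraries 1 to 4, against 61.8, 55.1, 46.2 and 47.7 CPM in control libraries 1 to 4. The ranges overlapped, since bigenic library 2 was below control libraries 1 and 2. The log2 fold change was 0.36 ± 0.12 (SE; adjusted p = 0.028), a 1.28-fold rise with a 95% interval of 1.07-fold to 1.53-fold. The call was lost with library size alone (0.27, adjusted p = 0.085), with upper-quartile factors (0.30, adjusted p = 0.058), without control libraries 2 and 3 (0.30, adjusted p = 0.19) and in 6 of the 8 fits that each left out a library. Dbp shares 539 exonic bases with Sphk2 on the opposite strand. Sphk2, which encodes a sphingosine kinase, averaged 21.4 ± 5.16 CPM over the bigenic libraries and 24.8 ± 4.58 CPM over the controls (SD, n = 4; adjusted p = 0.37).

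Hlf, which encodes hepatic leukaemia factor, was the least abundant PAR bZIP gene per length (chromosome 11, 90336536 to 90390895, minus strand). It measured 39.5, 46.3, 43.3 and 41.2 CPM in bigenic libraries 1 to 4, against 32.2, 30.2, 31.8 and 34.99 CPM in control libraries 1 to 4. The ranges did not overlap, and the log2 fold change was 0.40 ± 0.08 (SE; adjusted p = 0.0025). The call was lost without control libraries 2 and 3 (0.34, adjusted p = 0.064) and with Ttr as a covariate (0.28, adjusted p = 0.15).

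Nfil3, the repressor that competes for D-box sites (chromosome 13, 52967209 to 52981073, minus strand), did not pass the test. It measured 25.6, 34.1, 47.5 and 30.3 CPM in bigenic libraries 1 to 4, against 25.0, 28.9, 28.9 and 28.4 CPM in control libraries 1 to 4. Bigenic library 1 was inside the control range and library 3 far above it. The log2 fold change was 0.31 ± 0.16 (SE; adjusted p = 0.14), with a 95% interval from -0.04 to 0.65. It was 0.11 without bigenic library 3 (adjusted p = 0.45) and 0.43 without bigenic library 1 (adjusted p = 0.036).

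Tef made up 77.8 ± 1.34% of the summed FPKM of the PAR bZIP genes in bigenic libraries and 64.7 ± 1.42% in controls (SD, n = 4). Dbp made up 18.7 ± 1.39% in bigenic libraries and 29.8 ± 1.82% in controls, and Hlf 3.54 ± 0.675% in bigenic libraries and 5.46 ± 0.649% in controls. Their summed level was 209 ± 24.3 FPKM in bigenic and 108 ± 10.2 FPKM in control libraries. The log2 ratio of Dbp to Tef was lower in bigenic tissue, at -3.47 ± 0.13 against -2.53 ± 0.12 in controls (SD, n = 4), a difference of -0.94. The ratio of Tef to Hlf was higher by 0.90 and that of Tef to Nfil3 by 1.03. For each of these 3 ratios the groups did not overlap, with p = 0.0286 by exact permutation test and an adjusted p of 0.057. The ratios of Dbp to Hlf (-0.04, exact permutation p = 0.86), Dbp to Nfil3 (0.08, exact permutation p = 0.83) and Hlf to Nfil3 (0.13, exact permutation p = 0.51) differed by less than the spread between libraries.

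**Figure D3:**
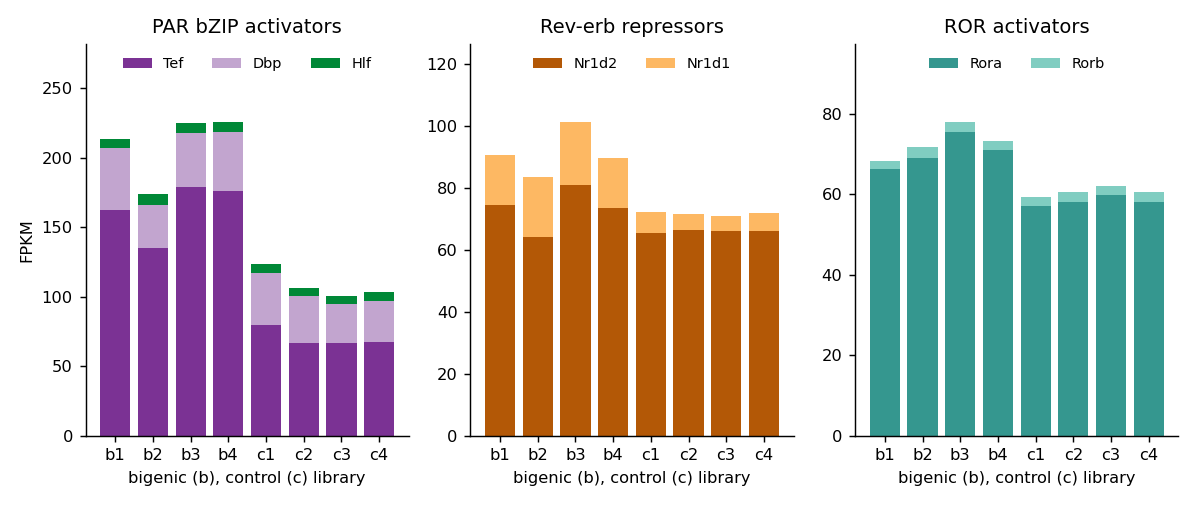
Stacked FPKM of the PAR bZIP, Rev-erb and ROR genes in bigenic libraries b1 to b4 and control libraries c1 to c4. The Tef and Nr1d1 segments are larger in every bigenic library than in any control, while Nr1d2 and Rora make up most of the Rev-erb and ROR levels in both groups.

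Rora, the ROR activator (chromosome 9, 68653786 to 69388246, plus strand), rose modestly. It measured 830, 878, 978 and 891 CPM in bigenic libraries 1 to 4, against 684, 698, 727 and 681 CPM in control libraries 1 to 4. The ranges did not overlap, and the log2 fold change was 0.36 ± 0.07 (SE; adjusted p = 0.0018). The call held in all 17 alternative fits, with log2 fold changes of 0.27 to 0.39. Rora is expressed by Purkinje cells and by interneurons of the molecular layer. The summed markers of interneurons were at 2189 to 2344 CPM in bigenic and 1812 to 1889 CPM in control libraries, with 3 of 7 markers higher and 0 lower. Those of Purkinje cells overlapped between the groups, at 17975 to 19732 CPM in bigenic and 15335 to 18051 CPM in control libraries, with 2 of 11 higher and 0 lower. The part of these cell types in the Rora level was not tested.

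Rorb, the ROR gene best known from cortex, retina and pineal gland (chromosome 19, 18930605 to 19111196, minus strand), did not pass the test. It measured 19.8, 26.5, 24.9 and 21.6 CPM in bigenic libraries 1 to 4, against 19.2, 22.6, 20.7 and 22.6 CPM in control libraries 1 to 4. The ranges overlapped, and the log2 fold change was 0.12 ± 0.11 (SE; adjusted p = 0.37), with a 95% interval from -0.11 to 0.36. The log2 ratio of Rora to Rorb differed by 0.24 between the groups (exact permutation p = 0.086, adjusted p = 0.14). Pineal markers summed to 0.713 to 1.68 CPM in bigenic and 1.15 to 1.44 CPM in control libraries, with 1 of the 9 high enough to be tested and that one not called.

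On the FPKM scale the order of the levels was, from the top, Tef, Nr1d2, Rora, Dbp, Ciart, Nr1d1, Nfil3, Hlf and Rorb in bigenic libraries, against Tef, Nr1d2, Rora, Dbp, Nfil3, Ciart, Hlf, Nr1d1 and Rorb in controls. Tef stood at 135 to 178 FPKM in bigenic and 66.6 to 79.4 FPKM in control libraries, and Rorb at 2.05 to 2.72 FPKM in bigenic and 2.09 to 2.51 FPKM in control libraries. The ranges of neighbours overlapped for Nr1d2 and Rora, Dbp and Ciart, and Nr1d1 and Nfil3 in bigenic libraries. In controls they overlapped for Ciart and Hlf, and for Hlf and Nr1d1. These levels rest on the fixed gene lengths of the deposited table, 12321 bases for Rora and 1395 bases for Ciart, and so on the isoforms they stand for.

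The members did not share 1 order among the bigenic libraries. Bigenic library 3 was the highest of its group for 6 members, Tef, Nfil3, Nr1d1, Nr1d2, Rora and Ciart, and it was the highest for 30.6% of all genes tested. Library 1 was the highest for Dbp and the lowest for 5 members, Hlf, Nfil3, Nr1d1, Rora and Rorb. Library 2 was the highest for Hlf and Rorb and the lowest for 4 members, Dbp, Tef, Nr1d2 and Ciart. Libraries 1 and 2 were the lowest for 19.7% and 30.5% of all genes. Among the controls library 1 was the highest for Dbp, Tef and Nr1d1 and the lowest for Nfil3 and Rorb.

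The rest of the core clock loop was described from a list of 20 genes, all of them tested. This list and the lists below were also chosen with earlier results known, so their counts are descriptive too. In bigenic tissue 12 rose and 1 fell, with a median log2 fold change of 0.40, where 21.4% of all genes were called higher and 22.9% lower. Without control libraries 2 and 3, 8 rose and 0 fell, and on log2(FPKM + 1) 8 rose and 1 fell. Over all genes tested, 1619 of 15525 rose and 1775 fell without those libraries. On log2(FPKM + 1) 2370 of 15186 rose and 4353 fell. The limit set by the unknown hour of collection applies here as to the members. Repressors of the clock were among the genes of the list that rose. Per1, which glucocorticoids and cAMP also induce, measured 76.2, 93.5, 187 and 102 CPM in bigenic libraries 1 to 4, against 10.6, 15.7, 9.89 and 11.7 CPM in control libraries 1 to 4 (log2 fold change 3.26 ± 0.29, SE; adjusted p = 4.1e-05). Library 3 was the highest bigenic library for Per1, as for Ciart. Per2 rose by 1.12 ± 0.16 and Per3 by 0.59 ± 0.08 on the log2 scale (SE; adjusted p = 0.00027 for each), Cry2 by 0.99 ± 0.07 (adjusted p = 5.3e-06) and Cry1 by 0.43 ± 0.16 (adjusted p = 0.041). The E-box repressors Bhlhe40 and Bhlhe41 rose by 1.41 and 0.84.

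Arntl, which Rev-erb proteins repress and ROR proteins activate, measured 101, 99.7, 146 and 111 CPM in bigenic libraries 1 to 4, against 88.0, 87.0, 92.0 and 85.9 CPM in control libraries 1 to 4. The rise was 0.37 ± 0.11 on the log2 scale (SE; adjusted p = 0.017). Clock, the partner of Arntl, averaged 214 ± 17.8 CPM over the bigenic libraries and 235 ± 21.7 CPM over the controls (SD, n = 4; adjusted p = 0.23). Npas2, which can replace Clock, differed by 0.45 ± 0.19 on the log2 scale (SE; adjusted p = 0.077), and Arntl2 by 0.02 ± 0.18 (adjusted p = 0.92). Among the enzymes that act on clock proteins, the deubiquitinase Usp2 rose by 1.02, the kinase Csnk1e by 0.86, Gsk3b by 0.37 and Csnk1d by 0.26, while the ubiquitin ligase gene Btrc fell by 0.30. A gene of the list was called lower in 2 of the 8 fits that each left out a library. The log2 fold changes of Timeless (0.16), Csnk2a1 (0.13), Nono (0.10) and Fbxl21 (-0.08) did not pass.

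**Figure D4:**
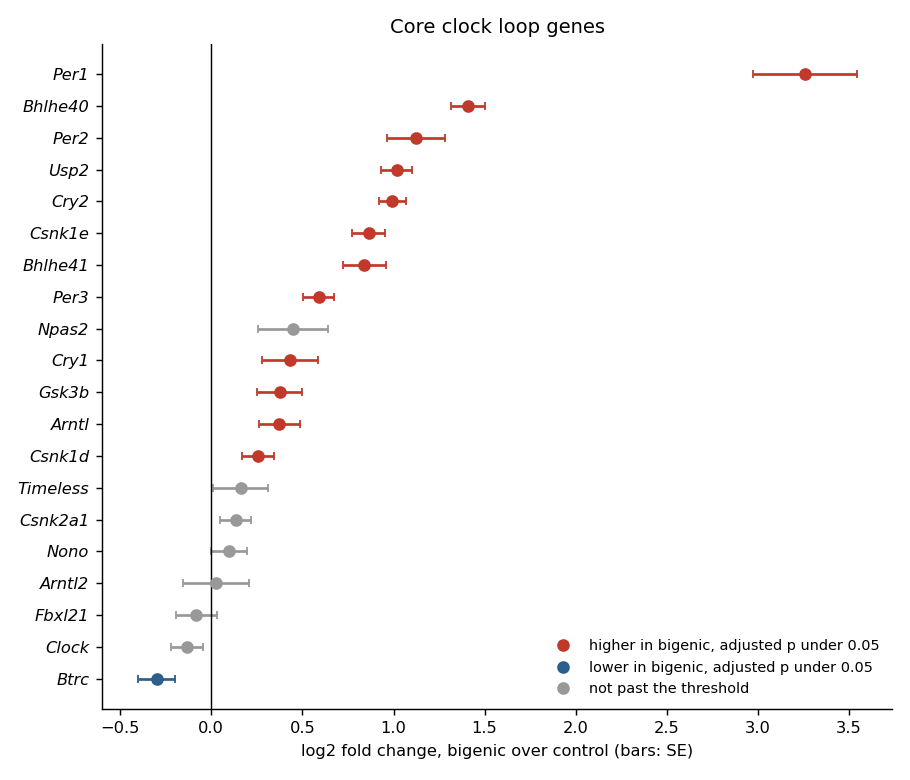
Log2 fold change, bigenic over control, of the 20 core clock loop genes, with the standard error of the edgeR fit as bars. Per1 lies at 3.26, 12 genes are higher and Btrc is lower in bigenic tissue at an adjusted p under 0.05.

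Cofactors of the Rev-erb and ROR proteins were counted next, on a list that also holds ubiquitin ligases. Of the 15 genes of this list, all tested, 8 rose and 0 fell, with a median of 0.27, where 21.4% of all genes rose. With Ttr as a covariate 5 rose, as did 1270 of the 15186 genes tested. Gps2, a subunit of the NCoR corepressor complex, rose by 0.78 ± 0.13, the coactivator gene Ppargc1a by 0.59 ± 0.10 and Nrip1, which encodes a nuclear receptor corepressor, by 0.46 ± 0.08 on the log2 scale (SE; adjusted p = 0.00075, 0.00082 and 0.0011).

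Genes reported elsewhere as targets of these factors, mostly in mouse liver, were mixed. Of 10 reported Rev-erb or ROR targets tested, 3 rose and 1 fell, with a median of 0.34, where 21.4% of all genes tested were higher and 22.9% lower. These shares are near those of all genes. Without control libraries 2 and 3, 1 rose and 1 fell, where 1619 of all 15525 genes tested rose and 1775 fell. The cell cycle inhibitor gene Cdkn1a, repressed by REV-ERBα in mouse liver, was at 51.1 ± 8.38 CPM over the bigenic libraries and 5.38 ± 0.694 CPM over the controls (SD, n = 4; adjusted p = 5.3e-07). Fabp7, a brain fatty acid binding protein gene that REV-ERBα represses in mouse brain, was at 12.5 ± 4.94 CPM over the bigenic libraries and 64.3 ± 10.9 CPM over the controls (SD, n = 4), with a fitted log2 difference of -2.36 ± 0.25 (SE; adjusted p = 8.3e-05). These 2 genes thus lay on opposite sides, and Arntl, given above and also on this list, was higher. Arntl and Cry1, both among the 3 that rose, are core clock genes, as are Clock and Npas2 of this list. Nfil3, also on it, is a member. Of 8 reported PAR bZIP targets tested, 7 rose and 0 fell, with a median of 0.56, where 21.4% of all genes rose. On log2(FPKM + 1), as with library size alone, 5 rose and 1 fell, and without control libraries 2 and 3, 5 rose and 0 fell. Over all 15186 genes, 2370 rose and 4353 fell on log2(FPKM + 1), and 2423 rose and 4373 fell with library size alone. Without control libraries 2 and 3, 1619 of 15525 rose and 1775 fell. The 7 include the member Nr1d1, and Per1, Per2 and Per3 of the core clock list, so that the lists are not separate. Nr1d1, Per1 and Per2, given above, had the smallest p on that list. Of 5 genes that RORA activates in Purkinje cells, 1 fell, and it was Shh, which encodes the growth factor sonic hedgehog, at 2.16 ± 0.264 CPM over the bigenic libraries and 3.99 ± 0.678 CPM over the controls (SD, n = 4), with a fitted log2 difference of -0.89 ± 0.17 (SE; adjusted p = 0.0017). Pcp2 (0.15, adjusted p = 0.11) and Pcp4 (0.10, adjusted p = 0.40), markers of Purkinje cells, did not pass.

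For the 3 members changed by more than 1.5-fold, the genes nearest in pattern were sought among 10900 genes with a mean of at least 5 CPM. Likeness was the mean absolute difference over the 8 libraries of log2 CPM, centred on the control mean. A small value reflects mostly a rise of like size, and the order of the libraries within a group can differ. Ciart was nearest to Tsc22d3, a glucocorticoid-induced gene also called Gilz, at 0.16, and to the phospholipase gene Pla2g4e, at 0.19. Tsc22d3 measured 569, 440, 884 and 713 CPM in bigenic libraries 1 to 4, against 163, 153, 141 and 151 CPM in control libraries 1 to 4. Since it was picked on these values, an order of libraries shared with Ciart is not a separate result. Nr1d1 was nearest to the adaptor gene Sh2b2 and to the transcription factor gene Tfap4, both at 0.13. Tef was nearest to the proteoglycan gene Sdc4, at 0.068, and to the proline dehydrogenase gene Prodh, at 0.083. Such closeness was rarer for Ciart, with 9 genes within 0.25, than for Nr1d1, with 26, or Tef, with 153.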

How the data were processed

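RNA was measured by sequencing in whole cerebellum of 4 bigenic and 4 control mice, tamoxifen having been prepared at 25 mg/ml. The authors deposited raw read counts per gene, made with STAR and HTSeq on build mm10 per the submitters' processing notes, and FPKM, which equal those counts per fixed gene length and column total, as checked on the values. Versions and strand use in counting are not given in the sources used here. The labels name 2 library kits, so strand is treated as unknown. Libraries of 1 group differed by more than sampling noise.

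Counts were fitted in R 4.3.3 with edgeR 4.0.16 (filterByExpr, TMM, robust quasi-likelihood F test), 2 duplicated symbols being kept apart, and adjusted p-values are Benjamini-Hochberg values across the 15186 genes tested. Standard errors and 95% intervals derive from the F statistic. The fit was tested on simulated data. Ratios of members, on log2 CPM with a prior count of 2, were compared by exact permutation over 35 splits (scipy 1.17.1). Alternatives used DESeq2 1.42.0, limma 3.58.1 on log2(FPKM + 1) and log2(FPKM + 0.1), other scalings, no filter, fewer libraries, a Ttr covariate and a replicate block.

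Same-numbered mice did not deviate together in every pair (correlations 0.024 to 0.33, 2 of 4 above 0.1). Of the bigenic libraries, 3 correlated best with the control of their own number. The main fit is unpaired, and the replicate block is an alternative. Members and lists were chosen with earlier results of these data known, and some listed genes are not reported here and are left out of the counts of lists. Named genes are the members, the 20 core clock genes, up to 3 genes with the smallest p of each other list, genes that overlap a member, and the 2 nearest in pattern to each member changed by over 1.5-fold. Positions and overlaps are from GENCODE M21 (GRCm38, or mm10). Of 37 such named genes that are not members, 17 share exonic bases with another annotated gene, among them Bhlhe40, Bhlhe41, Cry2, Csnk1e, Usp2, Shh, Pcp4 and Cdkn1a. Their counts could include reads of the other gene, or lack reads of the shared bases.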

Additional observations from a re-analysis of the deposited data

Results flagged for a closer look

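In 7 of the 120 groups of 4 libraries examined, 1 library lay far from the other 3 by Dixon's criterion. Chance gives about 1 in 20 such groups, and the number found is close to that. Tef was at 344 CPM in control library 1, against 286 to 293 CPM in the other controls. In the same library Nfil3 was at 25.0 CPM, against 28.4 to 28.9 CPM, Fabp7 at 47.9 CPM, against 69.0 to 70.4 CPM, and Prodh at 36.8 CPM, against 32.2 to 32.5 CPM. Prodh was picked for its likeness to Tef over these libraries, so its flag is not separate from that of Tef. Without control library 1 the log2 fold change was 1.37 for Tef and 0.26 for Nfil3. Npas2 was at 4.54 CPM in bigenic library 2, against 2.84 to 3.11 CPM in the other bigenic libraries. Pcp4 was at 799 CPM in bigenic library 3, against 654 to 678 CPM. The summed markers of brainstem and midbrain were at 149 CPM in control library 4, against 55.2 to 65.9 CPM in the other controls.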

How the results depend on the processing

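Ciart, Nr1d1, Tef and Rora kept their direction and their call in all 17 alternatives, with log2 fold changes of 2.03 to 2.50, 1.51 to 1.86, 1.20 to 1.38 and 0.27 to 0.39, and Rorb stayed short of the threshold in all of them (0.02 to 0.19). The calls of Dbp and Nr1d2 were lost with library size alone (0.27 and 0.15), upper-quartile factors (0.30 and 0.18), log2(FPKM + 1) (0.27 and 0.14), log2(FPKM + 0.1) (0.27 and 0.14), without control libraries 2 and 3 (0.30 and 0.25) and with the Ttr covariate (0.43 and 0.27). That of Nr1d2 was also lost without a filter (0.22, adjusted p = 0.051), and that of Hlf without control libraries 2 and 3 (0.34) and with Ttr (0.28). Leaving out 1 library gave 0.30 to 0.45 for Dbp, 0.17 to 0.29 for Nr1d2 and 0.11 to 0.43 for Nfil3, and 5 to 7 members passed. Without control libraries 2 and 3, 3394 genes passed (1619 higher, 1775 lower) and 4 members; fewer libraries were tested there. With Ttr 2935 passed (1270 and 1665) and 4 members, and the cause was not tested. The ratio of Dbp to Hlf turned sign when 1 library was left out (-0.13 to 0.10), as did Dbp to Nfil3 (-0.10 to 0.24), which was also -0.026 without control libraries 2 and 3; neither passed the test. With the replicate block 7443 genes and 7 members passed, and it changed no call of a member (Nr1d2 0.23, Dbp 0.36).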

Other observations

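The C/EBP genes are bZIP factors related to the PAR bZIP genes and, like NFIL3, can bind similar sites. The list used here was not made up of bZIP genes alone. Of its 6 genes tested, 1 rose and 1 fell, with a median log2 fold change of 0.26, where 21.4% of all genes rose and 22.9% fell. Cebpd, a C/EBP factor of acute responses, reached 5.79, 8.68, 9.84 and 9.46 CPM in bigenic libraries 1 to 4, against 1.93, 2.41, 1.97 and 1.196 CPM in control libraries 1 to 4 (log2 fold change 2.17 ± 0.23, SE; adjusted p = 4.4e-05). All bigenic values were above all controls. Cebpg, which lacks an activation domain, was at 32.5 ± 7.55 CPM over the bigenic libraries and 54.2 ± 2.77 CPM over the controls (SD, n = 4), with a fitted log2 difference of -0.74 ± 0.14 (SE; adjusted p = 0.0016). Cebpb was at 2.03 ± 0.277 CPM over the bigenic libraries and 1.29 ± 0.486 CPM over the controls and did not pass (adjusted p = 0.065). These 3 genes share exonic bases with other annotated genes.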
